A study of Rattus norvegicus with 24 samples.

Results

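The 39 protein-coding Hox genes that RefSeq lists for the rat encode homeodomain transcription factors and lie in 4 clusters, named Hoxa to Hoxd. Of these, 21 were measured here, each by 1 probe with their symbol, and they were found by symbol alone: every probe with a single gene symbol in the annotation of the platform was kept if that symbol began with Hoxa, Hoxb, Hoxc or Hoxd followed by a digit. The array had 27342 probes, of which those with a single symbol stood for 14324 genes. The 21 genes comprised 5 of the Hoxa, 6 of the Hoxb, 4 of the Hoxc and 6 of the Hoxd cluster. The other 18 RefSeq symbols, among them Hoxc6, Hoxc8, Hoxa9, Hoxa10, Hoxc10 and Hoxc11, had no such probe and were not analysed here. The annotations differ at Hoxc9: the probe used for it is listed by the study under both Hoxc6 and Hoxc9, so it may read the brachial neighbour too, and the study gives the name Hoxc9 to a further probe that has no symbol in the platform annotation. That further probe is outside the 21 genes and their counts, and its values are given beside those of Hoxc9. No filter on low values was set, so every one of the 21 genes stayed in each count.

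The RNA came from thoracic propriospinal (TPS) neurons of female Long Evans rats aged 77 ± 10 days. These neurons lie in the thoracic cord and send axons down to the lumbar enlargement, and they were filled backwards from there with the fluorescent tracer Fluoro-Gold and cut out by laser, so that each array holds the collected neurons of 1 animal. Uninjured rats formed the 4-day control, 2-week control and 1-month control groups (n = 4 each). Rats with a complete low thoracic transection were taken at 3 days, 1 week (n = 4 each), 2 weeks and 1 month (n = 2 each) post lesion, and nothing but the survival time and the transection set the groups apart in the labels. Both early groups were compared with the same 4-day controls, and the later groups with their own. The values are intensities that the authors normalized by robust multi-array averaging (RMA), and their log2 is used throughout, so a difference of 1 is a doubling. A gene was called where the adjusted p of limma, over all 27342 probes, was below 0.05. Replicates are separate animals, and with 2 animals in each late group the precision there is low.

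Hox genes are numbered by paralog group. A low number marks a gene that is switched on early and reaches forward into the hindbrain or neck, and a high number marks one restricted to the lumbar, sacral or tail end of the embryo, in the same order in which the genes lie along each cluster. Members with intermediate numbers give the brachial and thoracic cord its identity, and Hoxc9 is known for setting the thoracic motor columns and for holding brachial Hox genes down there. Adult spinal neurons keep part of this pattern. Hox proteins bind short sequences with a TAAT core, often together with cofactors of the TALE class (Pbx, Meis, Pknox), and whether a Hox gene stays off is set by Polycomb proteins, which gather at starts rich in CG dinucleotides.

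The starts of 11 of the 21 genes were in the RefSeq promoter table (build GRCr8), and the 250 bases before the start are shown for the genes of the brightest and the dimmest Hox probe and for the gene with the only Hox-Pbx motif. Bases run 5′ to 3′ on the strand of the gene, and capitals mark CG dinucleotides.

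Hoxa7 (chr4:82648242-82648491, minus strand): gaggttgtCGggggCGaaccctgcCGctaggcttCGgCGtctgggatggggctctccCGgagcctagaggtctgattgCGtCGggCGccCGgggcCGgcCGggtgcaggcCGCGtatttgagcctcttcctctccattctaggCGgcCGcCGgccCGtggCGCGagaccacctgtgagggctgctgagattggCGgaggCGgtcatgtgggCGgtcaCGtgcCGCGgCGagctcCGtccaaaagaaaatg

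Hoxd13 (chr3:79977827-79978076, plus strand): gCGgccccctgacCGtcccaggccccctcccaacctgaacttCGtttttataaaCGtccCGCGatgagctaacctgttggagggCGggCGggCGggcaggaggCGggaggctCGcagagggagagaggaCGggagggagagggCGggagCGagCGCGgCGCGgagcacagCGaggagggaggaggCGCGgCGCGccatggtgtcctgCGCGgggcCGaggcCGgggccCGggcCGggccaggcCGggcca

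Hoxa2 (chr4:82595693-82595942, minus strand): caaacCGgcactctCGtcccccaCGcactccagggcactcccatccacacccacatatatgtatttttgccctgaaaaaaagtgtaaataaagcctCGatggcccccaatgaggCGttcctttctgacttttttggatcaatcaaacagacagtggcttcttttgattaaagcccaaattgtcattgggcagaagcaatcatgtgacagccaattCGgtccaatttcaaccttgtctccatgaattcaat

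The Hoxa7 window held 28 CG, the Hoxd13 window 30 and the Hoxa2 window 6, where the median of all 33469 promoters was 5. At least 20 CG stood in 6 of the 11 Hox windows (Hoxa4, Hoxd13, Hoxa7, Hoxd1, Hoxd10 and Hoxd9) and in 16.7% of all promoters. The gene of the brightest probe and the gene of the dimmest were thus both CG-rich, while the window of Hoxc4, with 3 CG, was below the median promoter and that of Hoxa2 just above it. The core TAAT, read on both strands, occurred in 5 of the 11 windows and in 57.0% of all. The Hox-Pbx motif TGATTNAT, read likewise and holding a TAAT itself when N is A, occurred in 1 (Hoxa2) and in 2.82% of all. These are matches of letters and not sites of binding.

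Of the 21 probes those of Hoxa7 and Hoxc9 were the brightest in the uninjured samples of TPS neurons. On the same arrays the median percentile of markers was 97.6 for neurons, 94.7 for astrocytes and 95.5 for oligodendrocytes. For microglia and macrophages it was 81.1. Which of these cells gave the Hox signal was not tested. Over the 12 uninjured arrays, 7 of the 21 probes were above the median of all probes (log2 6.27) and 19 were above the lowest 15 percent (5.05). The 7 were Hoxa7, Hoxc9, Hoxa5, Hoxb4, Hoxb3, Hoxa2 and Hoxb7, and none of them has a paralog number above 9. Of the 5 genes with numbers 10 to 13, none was above the median probe, and they stood at percentiles 6.8 to 30.0 of all probes. Genes numbered 7 to 9 spread from percentile 13.9 to 79.3, those numbered 4 and 5 from 26.6 to 66.8, and those numbered 1 to 3 from 40.3 to 58.0. The Hoxd10 probe stood above those of Hoxc5, Hoxd4, Hoxb8 and Hoxd9. Probes differ in their affinity and no detection limit was known, so these percentiles describe signal on the array, do not rank the genes by their RNA and do not show that a gene was off.

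**Figure D1:**
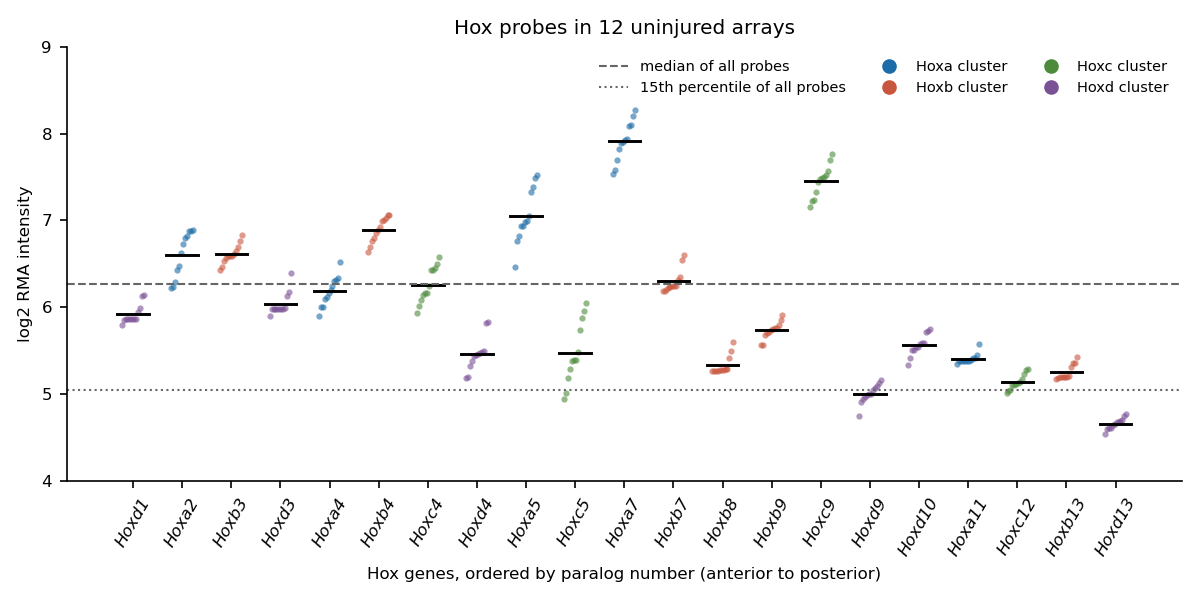
Log2 RMA intensity of the 21 Hox probes (vertical axis) in the 12 uninjured arrays, ordered by paralog number along the horizontal axis. Points are arrays, coloured by cluster, short bars are means over the 12 arrays, and the lines mark the median (6.27) and the 15th percentile (5.05) of all probes. Hoxa7 and Hoxc9 are on top, and the 5 genes numbered 10 to 13 lie below the median line on every array.

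The brightest of the 21 was that of Hoxa7, a trunk gene that helps pattern thoracic segments, with a mean of 7.91 ± 0.23 (SD, n = 12) and a range of 7.54 to 8.27. Hoxc9, the thoracic determinant, followed with 7.45 ± 0.19 and a range of 7.16 to 7.77, and the further probe that the study names Hoxc9 had 8.74 ± 0.15 (SD, n = 12). The weakest uninjured array of either gene was still above the median of all probes. Hoxa5, which is needed for the phrenic motor column of the neck, had 7.06 ± 0.32, and its arrays ranged from 6.46 to 7.53.

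Among the genes of the hindbrain and neck, Hoxb4 had 6.89 ± 0.14, Hoxb3 6.61 ± 0.11 and Hoxa2, which acts furthest forward in the hindbrain of all Hox genes, 6.60 ± 0.26 (SD, n = 12 each). All were above the median probe in the mean, while single Hoxa2 arrays fell to 6.22. Hoxd1 was the only measured gene of paralog 1 and had 5.92 ± 0.11. Hoxa4 (6.18 ± 0.17) and Hoxc4 (6.26 ± 0.21) were close to the median line, and Hoxd4 was lower, at 5.46 ± 0.20.

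Paralogs of 1 number did not stand at 1 level. In group 9, Hoxc9 was at percentile 73.2, Hoxb9 at 34.9 and Hoxd9 at 13.9, and in group 7 Hoxa7 was at 79.3 and Hoxb7 at 50.7. In group 5, Hoxa5 was at 66.8 and Hoxc5 was below the median. By cluster, 3 of 5 Hoxa, 3 of 6 Hoxb and 1 of 4 Hoxc genes were above the median probe, and 0 of 6 Hoxd genes were. The Hoxb8 probe, for a gene known in dorsal horn patterning and in microglia, was dim, with 5.33 ± 0.11.

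The probes of the posterior genes were below the median probe on every uninjured array. Hoxd10, a lumbar gene, had 5.57 ± 0.12, Hoxa11, known from limb and kidney, 5.41 ± 0.06, and Hoxc12 5.14 ± 0.09. Hoxb13, a gene of the tail bud and prostate, had 5.25 ± 0.09, and Hoxd13, a digit gene, 4.66 ± 0.07 (SD, n = 12 each). Hoxd13 was the lowest of the 21 and Hoxd9, at 5.00 ± 0.11, the second lowest, and only these 2 were within the lowest 15 percent of probes in the mean.

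Several of the probes returned the same number from array to array. The log2 value, taken to 4 decimals, was identical on 14 of 24 arrays for Hoxd3 (5.98), on 11 for Hoxd1 (5.86), on 9 for Hoxb13 (5.20), on 7 for Hoxa11 (5.38), on 6 for Hoxd9 (5.00) and on 4 for Hoxb7 (6.25). A value shared by 4 or more arrays occurred at 14.8% of all probes. Identical values lower the spread between arrays at these 6 genes, and why the values repeat was not tested. Spread within groups (residual SD) ran from 0.05 to 0.47 over the 21 genes, with a median of 0.11 against 0.16 for all probes, and the highest was that of Hoxc5.

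Of 10 homeobox genes known from the forebrain and midbrain, among them Lhx2, Barhl1 and Gbx1, which are also known in dorsal interneurons of the cord, 0 were above the median probe. Of the 7 measured TALE cofactors, 5 were above the median, with Pbx3 highest at 8.07 (percentile 81.2). Of 21 Polycomb genes 19 were above it, and of 23 transcription factors of spinal interneuron classes 5 were.

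Before the comparisons, 2 arrays need naming. Array quality weights, which estimate how far each array departs from its group, were 0.322 for 4-day control 3 and 0.51 for 4-day control 4, against 0.643 to 1.7 for the others, and both serve in the early comparisons. Glial signal was high in all groups, with astrocyte markers (8 of 8) and oligodendrocyte markers (8 of 8) above the median probe as were the neuronal markers (13 of 13). A lower value in such pooled tissue can come from fewer cells of a type or from less RNA in each, and these cannot be told apart.

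At 3 days post lesion none of the 21 Hox genes passed the test, where 2.42% of all probes did, while the further probe that the study names Hoxc9 did and was lower. In the limma fit, 4 of the 21 genes (19.0%) had an unadjusted p below 0.05, as did 3563 of all 27342 probes in either direction. The 4 were Hoxb8, Hoxc9, Hoxa7 and Hoxb4, all lower in transected rats, where 6.32% of all probes were lower at that p. The methods' t-test gave 2 at that unadjusted threshold and 0 after adjustment. Of the 21 genes, 14 were lower and 7 higher (16 lower after quantile normalization and 14 after cyclic loess), with a median difference of -0.04 against -0.01 for all probes. Of all probes 51.7% were lower. Among the 7 Hox probes above the median level 6 were lower (median -0.23), where 55.7% of all probes above that level were (median -0.02). The other 14 Hox probes had a median of -0.01. The level of each probe was taken from the uninjured arrays, the 4-day controls among them. The choice of the 7 was thus not independent of these differences, and its part in them was not tested. With the filter at the median, which leaves 6 Hox genes, 5 were lower (median -0.26).

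Among the 21 genes Hoxc9 showed the clearest separation of the 2 groups. On the probe listed by the study under Hoxc6 and Hoxc9, its log2 values were 7.45, 7.24, 7.49 and 7.50 in the 4-day controls and 6.93, 7.11, 7.02 and 7.11 at 3 days. All 4 transected animals were below all 4 controls, which was the case, in either direction, for 4.95% of all probes and for no other Hox gene. A lack of overlap at 1 of 21 genes is near that share. The difference was -0.37 (SE 0.14, 95% interval -0.66 to -0.09, 1.30-fold lower), with an adjusted p of 0.194. The two-sided exact permutation test gave 0.0286, the smallest value that 4 against 4 animals can give. Groups without overlap always give this value, so it adds nothing to the lack of overlap.

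The further Hoxc9 probe, brighter than any of the 21, read 8.62, 8.43, 8.82 and 8.81 in the 4-day controls and 8.20, 8.07, 8.20 and 8.18 at 3 days. All 4 transected animals were again below all 4 controls. It was lower by 0.50 on the log2 scale (SE 0.09, 95% interval -0.69 to -0.32, 1.42-fold), with an adjusted p of 0.00307 in the limma fit. The call held without any 1 of the 8 animals (adjusted p from 0.000827 to 0.016), and was lost in limma with the compared groups alone (0.166), with 4-day controls 1 and 2 only (-0.36, adjusted p = 0.0867) and in the methods' t-test (0.392). Its name comes from the study alone, and both probes of Hoxc9 were compared with their values known.

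At 1 week the further Hoxc9 probe read 8.48, 8.37, 8.27 and 8.45, which overlaps the controls, and differed by -0.28 (SE 0.09, unadjusted p = 0.0053, adjusted p = 1.0 in limma). It differed by -0.12 (SE 0.11) at 2 weeks and by -0.21 (SE 0.11) at 1 month, and neither passed the test. At 1 month both animals were below all their controls, and 3 of the 21 Hox genes had no overlap there either, in 1 direction or the other. The share of all probes was not counted at that time. At 2 weeks, also with 2 against 4 animals, it was 16.8%. For the further Hoxc9 probe the direct difference between 3 days and 1 week was -0.23 (SE 0.09, unadjusted p = 0.0189, adjusted p = 0.281 in limma). These groups did not overlap, as held for 5.99% of all probes, but a difference between these times did not pass the test. On average over the 4 times it was lower by 0.28 on the log2 scale (SE 0.05, adjusted p = 0.0272 in limma). That call was lost without 3-day animal 2, 4-day control 3 or 4, 2-week animal 3 or 4, or 1-month animal 1 (adjusted p from 0.0506 to 0.112), with a replicate block (0.0617) and with 4-day controls 1 and 2 only (0.252).

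Hoxa7 read 8.09, 7.54, 7.90 and 7.91 in the controls and 7.24, 7.39, 7.79 and 7.56 at 3 days. The groups overlapped through the single low control. The difference was -0.36 (SE 0.15, 1.29-fold lower), with an adjusted p of 0.277. Hoxb8 had the smallest p of the 21 and read 5.42, 5.28, 5.60 and 5.26 in the controls and 5.14, 5.21, 5.03 and 5.33 at 3 days. Its difference was -0.22 (SE 0.08, adjusted p = 0.179), and it too overlapped.

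Hoxb4 differed by -0.17 (SE 0.08), Hoxa2 by -0.28 (SE 0.16), Hoxa4 by -0.27 (SE 0.14) and Hoxa5 by -0.23 (SE 0.18), with limma adjusted p between 0.335 and 0.676. The largest increases were 0.12 (SE 0.09) for Hoxc12, which came to 0.019 without 3-day animal 1, 0.09 (SE 0.09) for Hoxd4 and 0.08 (SE 0.06) for Hoxd13. The 95% intervals of all 21 differences lay between -0.67 and 0.65. With 4-day controls 1 and 2 only, Hoxc9 differed by -0.30, Hoxa7 by -0.32 and Hoxb8 by -0.17, and none of the 21 was called.

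**Figure D2:**
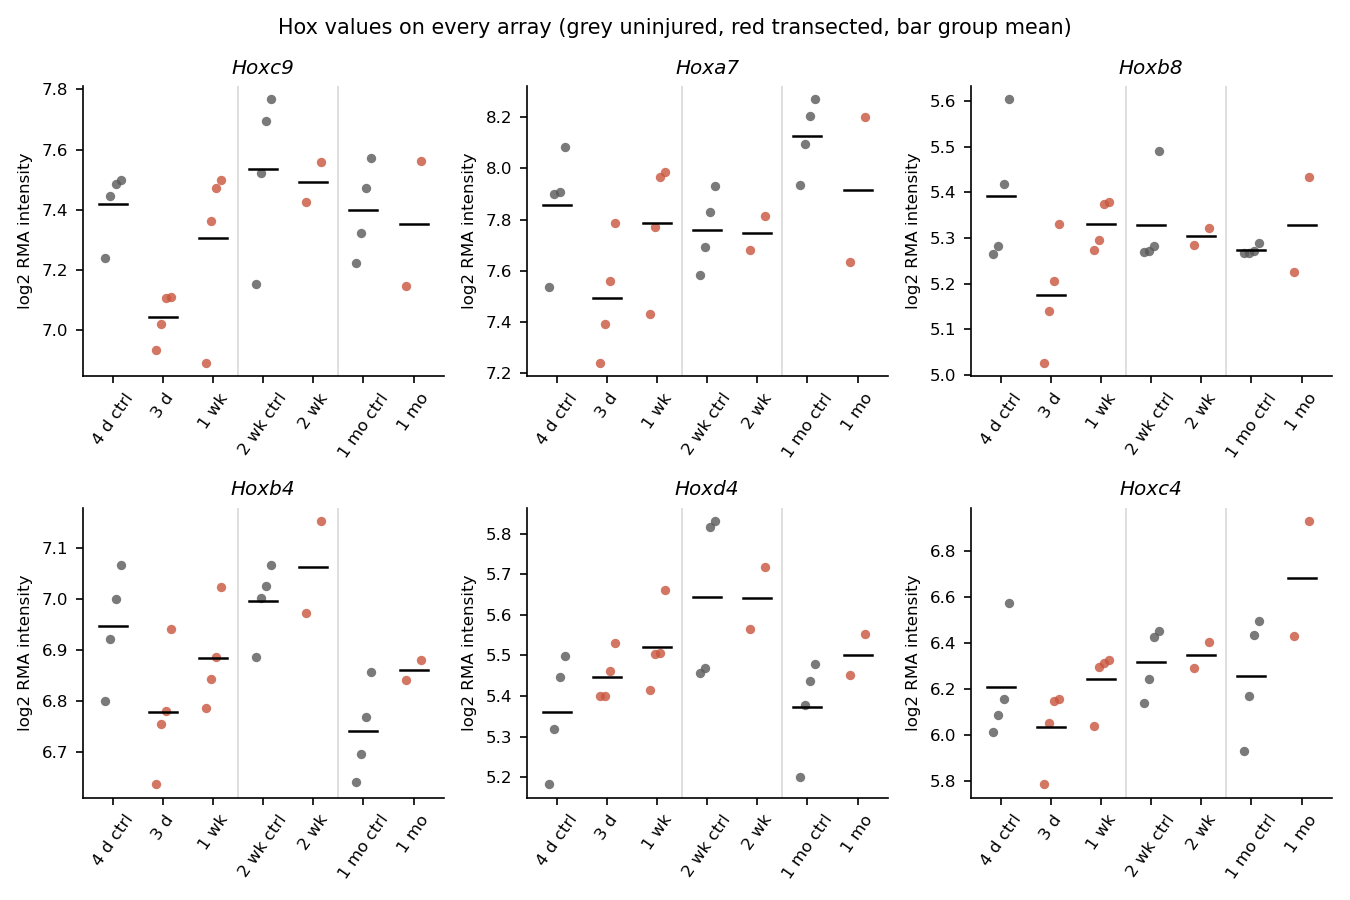
Log2 RMA intensity of 6 Hox genes on every array (vertical axes, each with its own range and none starting at 0) by group (horizontal axes, where d, wk and mo are days, weeks and months and ctrl is control). Points are animals and bars group means. The 4 values of Hoxc9 at 3 days are below the 4 control values, while those of Hoxa7 and Hoxb8 overlap, and the 1-month controls of Hoxb4 lie below the 2-week controls.

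Markers of other cell types differed in the same comparison. Microglia and macrophage markers rose in 9 of 12 cases at 3 days, and the mean of the 12 was 7.39 to 8.73 in the 4-day controls and 9.07 to 9.59 at 3 days. Proliferation markers rose in 7 of 7 cases (5.48 to 6.49 against 6.50 to 7.81). Of 13 neuronal markers, Tubb3 rose by 0.34 and Ina and Rbfox3 fell by 0.37 and 0.40. Of 8 astrocyte markers, Slc6a11 and Kcnj10 fell by 1.34 and 0.89. The part of these shifts in the lower Hoxc9, Hoxa7 and Hoxb8 values, the further Hoxc9 probe included, was not tested.

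At 1 week, against the same controls, none of the 21 Hox genes passed the limma test or had an unadjusted p below 0.05 in the limma fit or in the methods' t-test. Of all probes 0.0% were called and 4.34% had such a p in the limma fit. Hoxc9 read 7.47, 7.50, 6.89 and 7.36, so that 3 of the 4 animals were among the controls, and differed by -0.11 (SE 0.14). Hoxa7 differed by -0.07 (SE 0.15) and Hoxb8 by -0.06 (SE 0.08). All of the 7 brighter genes were lower than in the controls, by a median of 0.07 on the log2 scale, where 54.1% of all probes above the median level were lower. These 7 were likewise chosen on the uninjured arrays, the 4-day controls among them. With the filter at the median, all 6 Hox genes left were lower (median -0.09). The lowest difference was -0.21 (SE 0.16) for Hoxa2 and the highest 0.16 (SE 0.09) for Hoxd4. The intervals of the 21 differences lay between -0.65 and 0.66.

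The 3-day and 1-week animals were also compared directly, which needs no control. None of the 21 Hox genes was called, where 2.09% of all probes were. An unadjusted limma p below 0.05 was found for 3 of them (14.3%) and for 3153 of all 27342 probes in either direction. All 3 were lower at 3 days, where 5.19% of all probes were lower at that p. The 3 genes were Hoxd10 (-0.20, SE 0.08), Hoxa4 (-0.33, SE 0.14) and Hoxa11 (-0.11, SE 0.05), with adjusted p from 0.307 to 0.364. Hoxd10 read 5.54, 5.51, 5.53 and 5.43 at 3 days and 5.62, 5.57, 5.78 and 5.84 at 1 week, without overlap, and Hoxa11 did not overlap either, as held for 5.99% of all probes. Both are dim probes. Hoxc9 and Hoxa7 were not among the 3, so the lower level at 3 days was not shown to differ from that at 1 week.

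**Figure D3:**
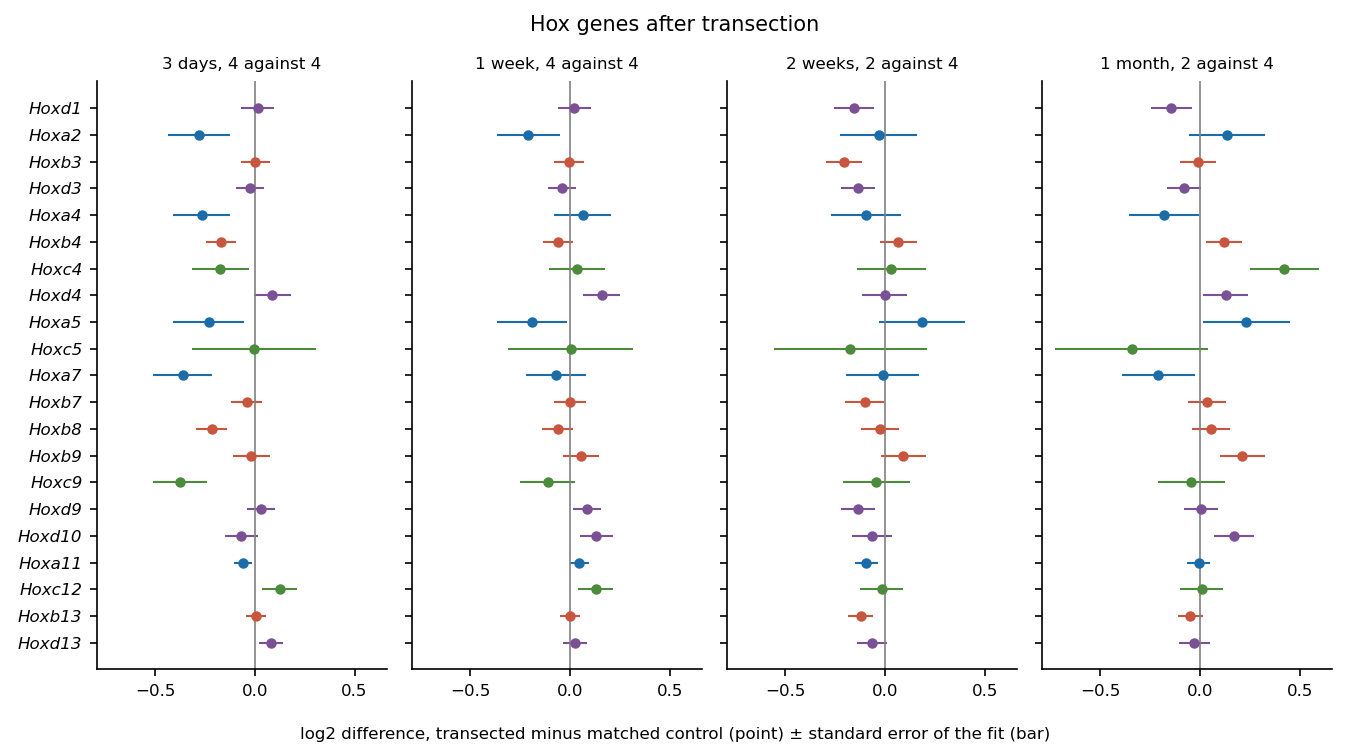
Log2 difference of each of the 21 Hox genes between transected and matched control animals (horizontal axis) at the 4 times after transection, with genes in paralog order on the vertical axis and colours for the Hoxa, Hoxb, Hoxc and Hoxd clusters as in the plot of levels. Points are differences and bars their standard errors in the limma fit. No point passed the test, and the widest bars belong to Hoxc5.

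At 2 weeks no Hox gene passed the limma test, where 0.00366% of all probes did, and 1 had an unadjusted p below 0.05 (against 5.34% of all probes, and 0 genes by the methods' t-test). That gene was Hoxb3, with 6.65, 6.84, 6.59 and 6.57 in the 2-week controls and 6.47 and 6.44 in the 2 transected animals, a difference of -0.21 (SE 0.09, adjusted p = 0.888). Its groups did not overlap, nor did those of Hoxd9, and 16.8% of all probes had no overlap with so few animals. Of the 21 genes 17 were lower (15 after quantile normalization and 14 after cyclic loess), with a median of -0.07 against -0.01 for all probes. Of all probes 52.2% were lower. Among the 7 Hox probes above the median level 5 were lower (median -0.03), where 44.5% of all probes above that level were (median 0.02). Of the other 14 Hox probes 12 were lower (median -0.08). The level was taken from the uninjured arrays, the 2-week controls among them. The trunk genes were near their controls, with -0.04 (SE 0.17) for Hoxc9 and -0.01 (SE 0.18) for Hoxa7. The largest increase was that of Hoxa5, at 0.19 (SE 0.22), followed in order of p by Hoxb9 (0.09) and Hoxb4 (0.07). Hoxb13 and Hoxa11 differed by -0.12 (SE 0.06) and -0.09 (SE 0.06). The intervals lay between -0.97 and 0.64.

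At 1 month no Hox gene passed the limma test, 0.0% of all probes were called, and 1 gene had an unadjusted p below 0.05 (against 3.52% of all probes, and 0 genes by the methods' t-test). Hoxc4, a gene of the neck region, read 5.93, 6.17, 6.50 and 6.43 in the 1-month controls and 6.43 and 6.93 in the transected animals, and differed by 0.42 (SE 0.17, adjusted p = 1.0). The value rests on the second transected animal, since the first was among the controls. Hoxb9 differed by 0.21 (SE 0.11) and Hoxd10 by 0.17 (SE 0.10), while Hoxa7 differed by -0.21 (SE 0.18), Hoxa4 by -0.18 (SE 0.17) and Hoxd1 by -0.14 (SE 0.10). The Hoxd1 value rests on the second transected animal (5.575), since the first read 5.861, as did every 1-month control. Hoxc9 differed by -0.04 (SE 0.17). The intervals differed in width, from -0.13 to 0.11 for Hoxa11 to -1.14 to 0.46 for Hoxc5. Hoxa11 is among the probes with identical values on several arrays, which lower its spread.

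On average over the 4 times none of the 21 Hox genes was called by limma, by the methods' 2-factor analysis of variance or at an unadjusted p below 0.05 in either, where limma called 0.285% of all probes and gave 8.28% an unadjusted p below 0.05. The average differences ran from -0.16 to 0.09, and 15 of 21 were below 0, as were 53.4% of all probes. Differences between the effects at 2 times, each against its own controls, were tested for 2 weeks against 3 days, 1 month against 3 days and 1 month against 2 weeks. None was called for a Hox gene by limma, where 0.0695%, 0.0805% and 0.0% of all probes were. At an unadjusted p below 0.05 there were 0, 3 and 0 Hox genes, against 6.71%, 6.91% and 3.13% of all probes, and the 3 were Hoxc4 (0.60, SE 0.22), Hoxb4 (0.29, SE 0.12) and Hoxb8 (0.27, SE 0.12), each higher at 1 month relative to 3 days, with adjusted p from 0.548 to 0.685.

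The single call among the 21 genes in all these comparisons was between uninjured groups. Hoxb4 read 7.07, 7.03, 7.0 and 6.89 in the 2-week controls and 6.64, 6.70, 6.86 and 6.77 in the 1-month controls. It was lower in the 1-month controls by 0.25 on the log2 scale (SE 0.08, 1.19-fold, adjusted p = 0.0419 in the limma fit), and the groups did not overlap. In this comparison 8.77% of all probes were called, so 1 of 21 is below the background. All probes had a median shift of -0.05, while those above the median level, as Hoxb4 was, had a median shift of 0.07. Without 1-month control 1, 2 or 4, or without 2-week control 1, 2 or 3, the call was lost, with adjusted p from 0.07 to 0.103.

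Between these control groups 19 of 21 Hox genes were lower in the 1-month controls (median -0.10), where 60.8% of all probes were lower. Of the 7 Hox probes above the median level 6 were lower (median -0.13), where 39.3% of all probes above that level were. Of the other 14 Hox probes 13 were lower (median -0.10). The level was taken from the uninjured arrays, these 2 groups among them. Only 12 of 21 Hox genes were lower after another quantile normalization (median -0.03) or cyclic loess (median -0.02). Hoxd4 read 5.82, 5.47, 5.83 and 5.46 in the 2-week controls and 5.48, 5.44, 5.38 and 5.20 in the 1-month controls, a difference of -0.27 (SE 0.09, adjusted p = 0.0712). Hoxa7 went the other way, from 7.93, 7.58, 7.69 and 7.83 to 7.94, 8.27, 8.20 and 8.10. All its 1-month controls were above the 2-week controls, and the difference was 0.37 (SE 0.15, adjusted p = 0.117). Groups without overlap were found for Hoxb4, Hoxa7 and Hoxb9 and for 21.0% of all probes. Astrocyte markers rose in 4 of 8, neuronal markers in 3 of 13 and oligodendrocyte markers in 2 of 8 cases between the same groups, and their part in the Hox values was not tested. Against the 4-day controls no Hox gene was called in the 2-week or the 1-month controls, nor was any probe (0.0% in both). Unadjusted limma p fell below 0.05 for Hoxd4 and Hoxb13 in the 2-week controls and for Hoxb4 in the 1-month controls, against 13.6% and 12.3% of all probes, and the methods' t-test gave 1 and 2 Hox genes.

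Of the genes that act with the Hox proteins or on Hox genes, none of the lists of cofactors and chromatin regulators had a call at 3 days. Of all probes 2.42% were called then. None of the 7 TALE cofactors was called, and the smallest p was that of Pbx3, at -0.30 (SE 0.10, adjusted p = 0.161). None of 21 Polycomb genes was called, with Rnf2, the ubiquitin ligase of Polycomb repressive complex 1, at -0.34 (SE 0.12, adjusted p = 0.179, and 0.0288 without 4-day control 3). None of 7 genes of the Trithorax group and the H3K27 demethylases, which keep Hox genes on, was called, and Wdr5 stood at 0.49 (SE 0.19). The medians of these lists were -0.07, 0.03 and -0.03, against -0.01 for all probes. At 1 week, 2 weeks and 1 month no member of any of the 8 lists passed the test, where 0.0%, 0.00366% and 0.0% of all probes did. With so few calls over all probes, the lack of calls in the lists says little about them.

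Of 13 signals that set Hox domains in the embryo, 1 was called at 3 days, where 2.42% of all probes were. Rxrg, a retinoid X receptor that partners the retinoic acid receptors, was lower by 0.30 (SE 0.08, adjusted p = 0.0470), from a dim probe at percentile 38.1. Without any 1 of the 8 animals the call was lost, with adjusted p from 0.0501 to 0.12, as it was in most other settings. Aldh1a2, which makes retinoic acid and marks motor neurons, stood at 0.15 (SE 0.17) and had the smallest p of the 7 motor column factors, of which none was called. Of 14 genes that flank the Hox clusters none was called, and Skap2, beside Hoxa and known in macrophages, stood at 0.58 (SE 0.16, adjusted p = 0.0671, and 0.00659 without 3-day animal 3). Of 23 interneuron factors none was called, with Pax2, a gene of inhibitory interneurons, at -0.27 (SE 0.08, adjusted p = 0.0910, and 0.0225 without 3-day animal 3). Of the 10 forebrain and midbrain genes none was called, with Dlx5 at -0.18 (SE 0.07).

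Between the 2-week and the 1-month controls, calls in these lists were 2 of 21 Polycomb genes (Rbbp4, 0.53, and Pcgf2, 0.57, both higher in the 1-month controls), 1 of 7 Trithorax genes (Men1, 0.32) and 1 of 13 axial signals (Wnt3a, -0.26). Of the interneuron factors 2 of 23 were lower (Lmx1b, -0.32, and Onecut1, -0.26), and of the forebrain and midbrain genes 1 of 10 (Six3, -0.22). These shares are to be read against the 8.77% of all probes.

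**Figure D4:**
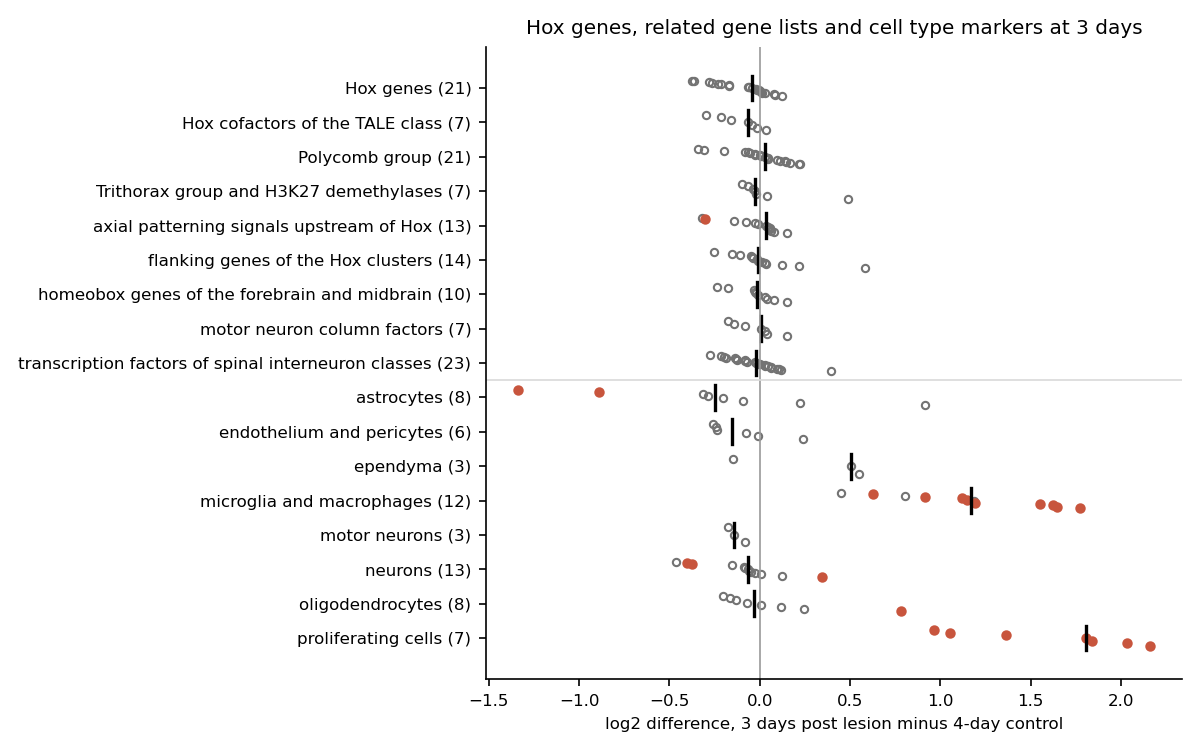
Log2 difference between 3 days post lesion and 4-day controls (horizontal axis) for the Hox genes, 8 related gene lists and 8 lists of cell type markers (vertical axis, with the number of genes measured). Points are genes, filled where limma called them, and black bars are list medians. The Hox genes lie between -0.37 and 0.12 with none filled, while all 7 proliferation markers and 9 of 12 microglia markers are filled on the right.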

How the data were processed

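RNA of 24 animals was hybridized to 24 Rat Gene 1.0 ST arrays. RMA was run by the authors (GeneSpring GX), who deposited intensities on a linear scale (17 to 7979.81), and log2 was taken here. Raw images were not used, so no detection limit could be set, and precision is limited by how many arrays a group holds. Symbols came from the platform annotation (1 symbol for 15097 probes, several for 323, none for 11922). A further Hoxc9 probe, named only in the study's supplement, was added after the data were seen and is in no count. The genes, lists and the rule for named genes (per paralog number the brightest gene, each called gene, at each time the 3 smallest p in each direction, and Hoxb13 and Hoxc9) were chosen with earlier results of these data known.

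Means of 7 groups were fitted to all 27342 probes with limma 3.58.1 in R 4.3.3 (empirical Bayes, prior degrees of freedom 2.6, residual 17), with Benjamini-Hochberg adjustment within each comparison. Exact permutation tests used scipy 1.17.1. Alternatives were 2 filters, quantile and cyclic loess normalization, trend with robust moderation, array weights, the compared groups alone, pooled controls, a replicate block, the methods' t-test and 2-factor analysis of variance, and leaving out each array. In the 2-factor analysis of variance the 4-day controls were entered for both early times, so each of these animals was counted 2 times. 4-day controls 1 and 2 alone were tried after seeing the data. The scripts were tested on simulated data. Promoters came from RefSeq (GRCr8). Python 3.11.15, pandas 2.3.3, numpy 2.4.6 and matplotlib 3.10.9 were used.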

Additional observations from a re-analysis of the deposited data

Results flagged for a closer look

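In 10 of the 105 sets of 4 arrays (21 genes in 5 groups), 1 array stood apart from the other 3 by Dixon's criterion. Chance meets it in about 1 in 20 sets of values that do not repeat. Values of Hoxd3, Hoxd9 and Hoxb13 repeat between arrays, so that rate does not hold for them and an excess was not shown. In Hoxd3, a probe at which most arrays share 1 value, these were 4-day control 1 (6.12, others 5.98 to 5.99), 1-month control 1 (5.90, others 5.98) and 3-day animal 4 (6.04, others 5.98). In Hoxd9, 3-day animal 3 had 4.98 where the others had 5.00. Hoxb13 in 1-month control 2 was 5.36 (others 5.17 to 5.20), Hoxd10 in 1-month control 1 was 5.33 (5.54 to 5.58), and Hoxd13 in 4-day control 4 was 4.53 (4.68 to 4.70). Hoxb8 in 2-week control 1 was 5.49 (5.27 to 5.28). The widest gaps were those of Hoxc12 in 3-day animal 1, at 5.54 (5.11 to 5.13), and of Hoxc4 in 1-week animal 1, at 6.04 (6.30 to 6.33). Without 3-day animal 1 the Hoxc12 increase at 3 days, 0.12, came to 0.019.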

How the results depend on the processing

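Counts of 0 calls among the 21 Hox genes at 1 week, 2 weeks, 1 month, on average, between 3 days and 1 week and between the effects at 2 times were the same in every alternative run. At 3 days 1 gene was called after another quantile normalization (Hoxb8) and 1 with all 12 controls pooled (Hoxc9, -0.41, adjusted p = 0.0233 in limma). Between control groups the 1 call became 0 after quantile normalization, cyclic loess, trend with robust moderation or the methods' t-test, 3 with array weights (Hoxb4, Hoxd3 and Hoxd4) and 2 with the compared groups alone (Hoxa7 and Hoxb4), and leaving out 1 array gave 0 to 2 (Hoxd4 was called without 2-week control 2 or 4, Hoxa5 without 2-week control 2). With a filter at the median, which leaves 6 Hox genes, the median difference moved to -0.26 at 3 days and -0.09 at 1 week. With all 12 controls pooled, the sign turned for Hoxd4 at 3 days (-0.012) and Hoxa7 at 1 month (0.003). Leaving out 1 array turned it at 2 weeks for Hoxa5 (-0.053 to 0.357) and Hoxb4 (-0.022 to 0.158), and at 1 month for Hoxb9 (-0.054 to 0.476) and Hoxa7 (-0.494 to 0.074). At 3 days Skap2 was called in 7 alternatives, array weights, cyclic loess and pooled controls among them, Dlx5 with array weights or 4-day controls 1 and 2 only, and Pax2 with pooled controls. The causes were not tested. Same-numbered arrays did not deviate together on average (mean r 0.0201 over 55 pairs, -0.00586 over 189 others). No pairing by number was seen, though groups of so few arrays cannot exclude one. With a replicate block the Hox calls stayed at 0 at 3 days and 1 between control groups, Rxrg lost its call (adjusted p = 0.069) and Skap2 gained one (0.0259). Rxrg also lost it with the 15 percent filter (0.0519), cyclic loess (0.0601), trend with robust moderation (0.0563), array weights (0.173), the compared groups alone (0.267), the methods' t-test (0.448) and 4-day controls 1 and 2 only (0.36). Where 1 animal of 2 was left out, the other was assumed to vary like the remaining groups. Using the mean of a gene's probes changes nothing with 1 probe each. Dim probes limit what can be seen of Hoxd9 and Hoxd13, and 2 animals limit the late times.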
